A study of Vulpes vulpes with 8 samples.

Results

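The interleukin-1 (IL-1) system was examined in gingiva of red foxes (Vulpes vulpes) with or without hereditary hyperplastic gingivitis (HHG), an inherited disease in which the gum overgrows. Its members were 10 gene symbols: the ligands IL1A, IL1B, IL33, IL18 and IL36G, the antagonist IL1RN, the receptors IL1R1 and IL1R2, and the inflammasome genes NLRP3 and CASP1. Every probe set that the platform annotation gives exactly 1 of these symbols was taken, which gave 12 of 43035 probe sets and 8 of 15115 named genes. IL36G and CASP1 had no such probe set and were not analysed here, although a probe set that the annotation names CASP4 could not be assigned to CASP4 or CASP1 with certainty. The 8 foxes were 5 affected (males 19, 55 and 107, females 381 and 757) and 3 unaffected (males 86 and 97, female 402), with 1 Affymetrix Canine 2 array each. Diagnosis rested on early signs, red and granular raised gum at the tooth margins. Samples came from animals euthanised at pelting or from anaesthetised animals in late spring, and the labels give no season or age for a single fox. The probe sets were designed for dog, so fox RNA was read through the sequence of a related species.

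IL1A and IL1B are the classical agonists of the system and signal through IL1R1, while IL1RN occupies that receptor without signalling and IL1R2 binds the ligands as a decoy. IL1B and IL18 are made as precursors that caspase-1 cuts once an inflammasome such as that of NLRP3 has assembled, whereas IL1A and IL33 are stored in epithelial and stromal cells and act as alarm signals on release. In human gum disease IL1B is known as a mediator of inflammation and bone loss. In the fox RefSeq annotation VulVul3, IL1A and IL1B are neighbouring genes with IL37 beside IL1B, IL1RN is followed by IL1F10 and IL36RN, and IL18R1, IL1RL1, IL1RL2, IL1R1 and IL1R2 follow one another in that order.

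Affected foxes had more IL1B and IL1A signal on average than unaffected foxes. Levels of every gene overlapped between the groups, and those of IL18, IL1RN, IL33, IL1R1, IL1R2 and NLRP3 did so widely. IL18 averaged lower in affected foxes, with a log2 difference of -0.48 that was -0.091 without unaffected fox 86. No difference in the system passed the test across the array. In these tissue pieces, fewer cells of a type and less RNA per cell cannot be told apart. Values are the authors' linear MAS5 intensities, and differences are of log2(intensity + 16), affected minus unaffected. Of the 12 probe sets 9 passed a filter that removed the dimmest 40% of the array, and these 9 covered 7 genes. In limma with Benjamini-Hochberg adjustment over 25754 probe sets, 0 of the 9 passed an adjusted p of 0.05, as did 0% of all probe sets in either direction. At an unadjusted p under 0.05 there was 1 of the 9, the IL1B probe set, against 2.69% of all tested. In 0 of the 9 did the groups separate completely, against 2.43% of all tested.

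Of the 8 genes, IL1B had the most even level among affected foxes (SD 0.15 on the log2 scale). Its brightest probe set read 36.2, 33.6 and 40.1 in affected males 19, 55 and 107 and 26.3 and 31.8 in affected females 381 and 757, against 29.2 and 7.22 in unaffected males 86 and 97 and 9.43 in unaffected female 402. All affected foxes were well above foxes 97 and 402, 4 of the 5 were also above fox 86, and affected fox 381 was below it. The means were 33.6 ± 5.15 in affected and 15.3 ± 12.1 in unaffected foxes (SD, n = 5 and n = 3). The log2 difference was 0.72 ± 0.23 (SE), with a 95% interval of 0.21 to 1.24 that is not corrected for the number of probe sets (limma, unadjusted p = 0.0111, adjusted p = 0.9999). The signal is low: background, for which the 95th percentile of 42 bacterial control probe sets was taken on each array, lay between 7.42 and 16.6, and fox 97 was at background. With an offset of 64 in place of 16 the difference was 0.31, and with 4 it was 1.13. The remaining IL1B probe sets failed the filter, the first at 1.02 to 17.4 in the affected group and 3.09 to 7.83 in the unaffected group, and the second at no more than 4.91 in any fox. They were above background in 2 and in 0 of the 8 foxes.

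IL1A, the membrane-bound and nuclear agonist of epithelium, read 172, 176 and 193 in affected males and 115 and 375 in affected females 381 and 757, against 203 and 66.3 in unaffected males 86 and 97 and 84.3 in unaffected female 402. Each affected fox exceeded foxes 97 and 402, but fox 757 alone also exceeded fox 86. The means were 206 ± 98.6 in affected and 118 ± 74.2 in unaffected foxes (SD, n = 5 and n = 3), with a difference on the log2 scale of 0.77 ± 0.39 (SE; limma, adjusted p = 0.9999). It was 1.19 without unaffected fox 86 and 0.49 without unaffected fox 97. Foxes 97 and 402 were the lowest and fox 86 the overlapping unaffected fox for both agonists. The 5' actin control signal, a measure of RNA quality, is given with IL1R2. Within the foxes of high signal, 2 affected and 2 unaffected, the IL1A and IL1B differences were 1.09 and 0.68. Within those of low signal they were 0.74 and 0.91, from 3 affected foxes and 1 unaffected fox, 402.

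IL33, an alarm cytokine kept in the nucleus of epithelial, endothelial and stromal cells, spread more among affected foxes than between the groups. It read 89.1, 170 and 234 in affected males 19, 55 and 107 and 283 and 481 in affected females 381 and 757, against 299.7 and 135 in unaffected males 86 and 97 and 153 in unaffected female 402. Fox 19 was the lowest and fox 757 the highest of all 8, so the affected foxes enclosed the unaffected ones. The log2 difference was 0.23 ± 0.45 (SE; limma, adjusted p = 0.9999), and -0.035 without affected fox 757.

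IL18, a cytokine that keratinocytes hold as a precursor, had the higher mean in unaffected foxes. Its brighter probe set read 291, 535 and 739.7 in affected males and 788 and 664 in affected females, against 1379 and 574 in unaffected males 86 and 97 and 648 in unaffected female 402. Unaffected fox 86 alone stood above every affected fox, and affected fox 19 was the lowest of all. The means were 604 ± 199 in affected and 867 ± 445 in unaffected foxes (SD, n = 5 and n = 3), with a difference on the log2 scale of -0.48 ± 0.37 (SE; limma, adjusted p = 0.9999). Without unaffected fox 86 it was -0.091. The second probe set gave the same picture at a lower signal, 101 to 260.3 for the affected group and 183 to 462 for the unaffected one, with a difference of -0.41.

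**Figure D1:**
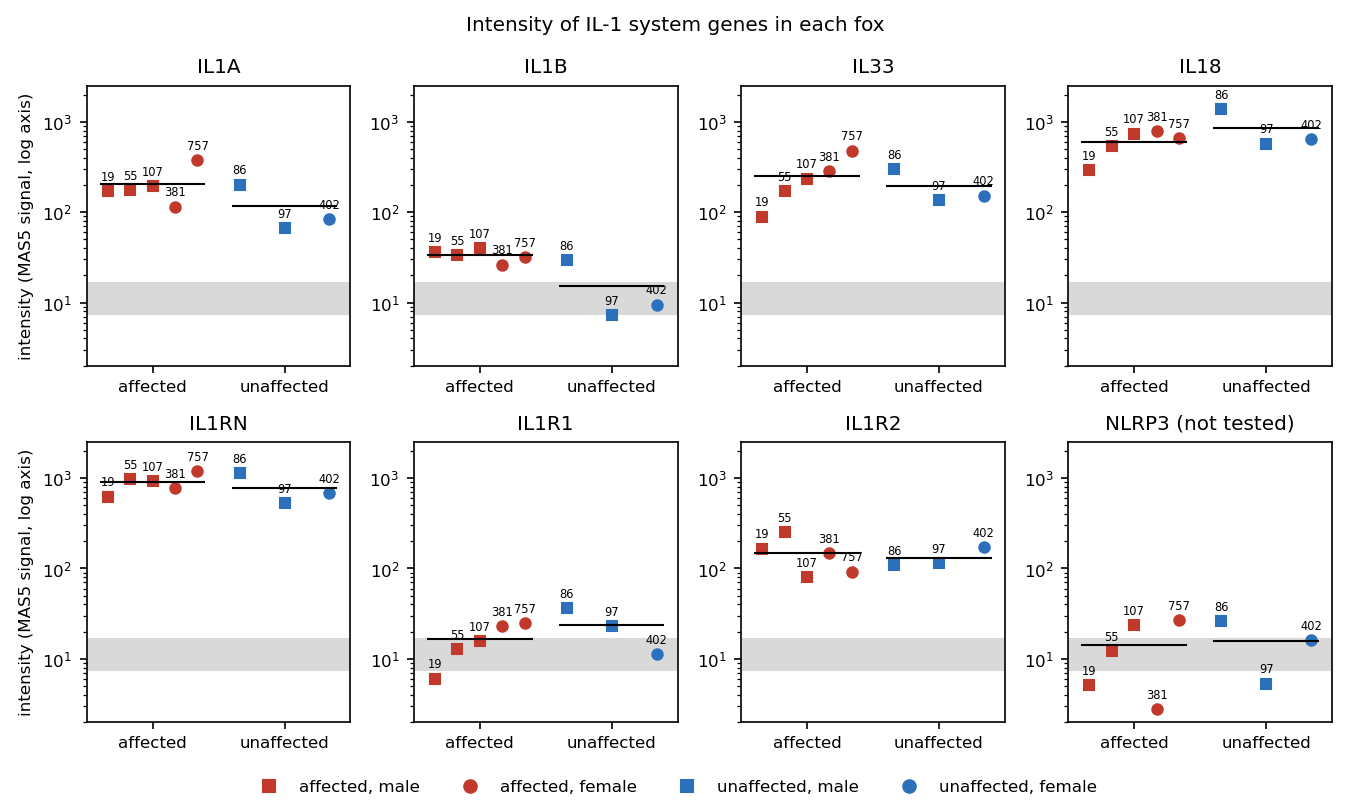
Intensity (MAS5 signal, log axis) of the brightest probe set of each of 8 genes in each fox, affected on the left and unaffected on the right of each panel; squares are males, circles females, numbers are fox numbers, black lines are group means and the grey band spans the per-array background of 7.42 to 16.6. IL1B separates 4 of the 5 affected foxes from all unaffected ones, and every gene overlaps between the groups.

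IL1RN, the receptor antagonist, was bright and even. It read 625, 967 and 929 in affected males and 773 and 1186 in affected females, against 1138 and 525 in unaffected males 86 and 97 and 686 in unaffected female 402. The groups overlapped over most of their range, and the highest was 2.26 times the lowest of the 8 foxes, the narrowest span of the 8 genes. The log2 difference was 0.23 ± 0.28 (SE; limma, adjusted p = 0.9999), and -0.013 without unaffected fox 97.

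The balance of agonist and antagonist was followed within each fox as the log2 ratio of IL1B or IL1A to IL1RN. Ratios were taken after adding 16 to each intensity. They were centred over the 8 foxes, since levels of different probe sets cannot be compared directly. The IL1B ratio was 0.74, 0.049 and 0.29 in affected males 19, 55 and 107 and 0.14 and -0.29 in affected females 381 and 757, against -0.31 and -0.18 in unaffected males 86 and 97 and -0.43 in unaffected female 402. Fox 757 was the affected fox that lay among the unaffected ones on this scale, and its place depended on the offset. The added 16 exceeded the IL1B signals of unaffected foxes 97 and 402, 7.22 and 9.43, and raised their ratios most. By intensity alone, fox 757 (IL1B 31.8, IL1RN 1186) had a slightly higher ratio than fox 86 (29.2 and 1138). Its ratio was also above those of fox 97 (7.22 and 525) and fox 402 (9.43 and 686). The mean ratio differed by 0.49 between the groups, and by 0.35 to 0.61 when any 1 fox was left out. The IL1A ratio averaged 0.20 ± 0.40 in affected and -0.34 ± 0.21 in unaffected foxes (SD, n = 5 and n = 3), with affected fox 381 at -0.29 below unaffected fox 86 at -0.095. These ratios combine chosen members and are given as a description, without a test.

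**Figure D2:**
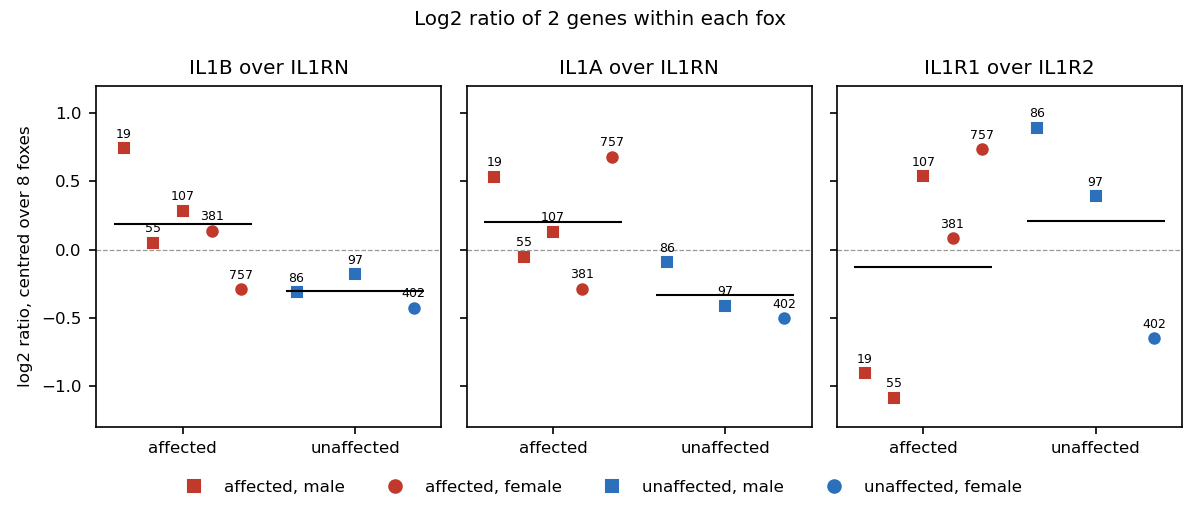
Log2 ratio of a pair of genes within each fox, centred over the 8 foxes, for IL1B over IL1RN, IL1A over IL1RN and IL1R1 over IL1R2. Ratios were taken after adding 16 to each intensity. Affected foxes are on the left, unaffected on the right, squares are males, circles females and black lines group means. The agonist to antagonist ratios average higher in affected foxes by 0.49 and 0.54, while the receptor ratio spans -1.09 to 0.73 in the affected group and -0.65 to 0.90 in the unaffected group.

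IL1R1, the signalling receptor, was near background. Its probe set read 6.03, 12.7 and 15.6 in affected males 19, 55 and 107 and 23.0 and 24.8 in affected females 381 and 757, against 36.5 and 22.9 in unaffected males 86 and 97 and 11.3 in unaffected female 402. It exceeded background in 3 of the 5 affected and in all 3 unaffected foxes. All affected males lay below both unaffected males, and both affected females lay above the unaffected female. Over all foxes the log2 difference was -0.27 ± 0.27 (SE; limma, adjusted p = 0.9999), and it was -0.042 without unaffected fox 86 and -0.51 without unaffected fox 402.

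IL1R2, the decoy receptor, overlapped between the groups. Its brighter probe set read 166, 253 and 79.99 in affected males 19, 55 and 107 and 147 and 92.4 in affected females 381 and 757, against 109 and 115 in unaffected males 86 and 97 and 173 in unaffected female 402. The log2 difference was 0.068 ± 0.33 (SE) for it and 0.11 ± 0.30 for the second probe set (limma, adjusted p = 0.9999 for each). The array's 5' beta-actin control reads the 5' end of its transcript and so follows RNA integrity and labelling. Its signal was 7831 to 8868 in affected foxes 107 and 757 and unaffected foxes 86 and 97. It was 1354 to 2336 in affected foxes 19, 55 and 381 and unaffected fox 402. IL1R2 was 79.99 to 115 in the foxes of high 5' actin and 147 to 253 in those of low 5' actin, and the second probe set 21.7 to 29.7 and 41.0 to 74.3. Neither probe set overlapped between these sets, which was also the case for 9.82% of all tested probe sets. Within the foxes of high 5' actin the disease difference of the brighter probe set was -0.32, and within those of low 5' actin 0.078. The part of RNA quality in the IL1R2 levels was not tested.

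**Figure D3:**
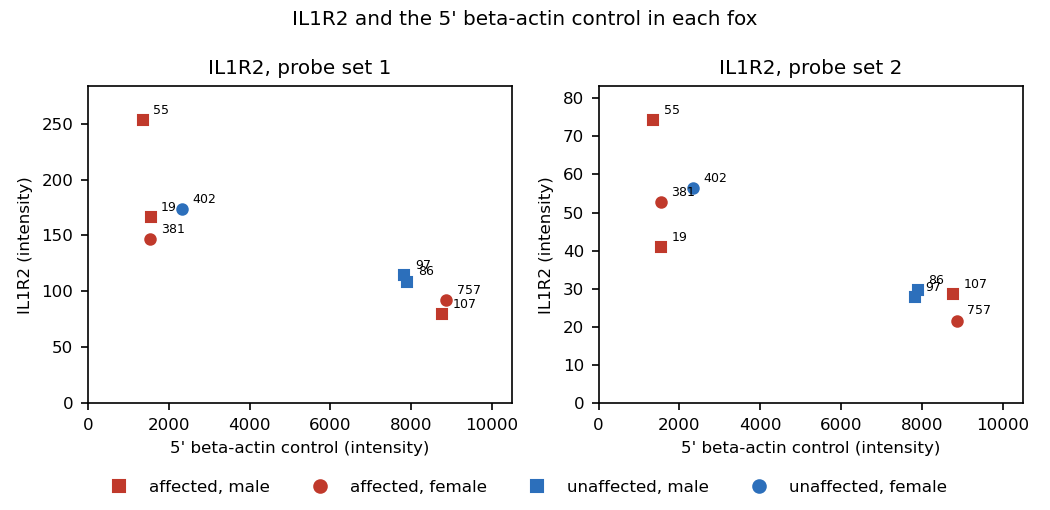
Intensity of each IL1R2 probe set against the intensity of the 5' beta-actin control of the same array, 1 point per fox (red affected, blue unaffected, squares males, circles females, numbers fox numbers). The 4 foxes with 5' actin between 7831 and 8868 have the lowest IL1R2 on both probe sets, and each such set of 4 holds affected and unaffected foxes.

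NLRP3, the sensor that nucleates an inflammasome, failed the filter. It read 5.08, 12.2 and 23.7 in affected males and 2.77 and 26.7 in affected females, against 26.1 and 5.31 in unaffected males 86 and 97 and 16.1 in unaffected female 402. It exceeded background in 2 affected and 2 unaffected foxes, so its level was not measured reliably, and the log2 difference of -0.10 carries no test.

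**Figure D4:**
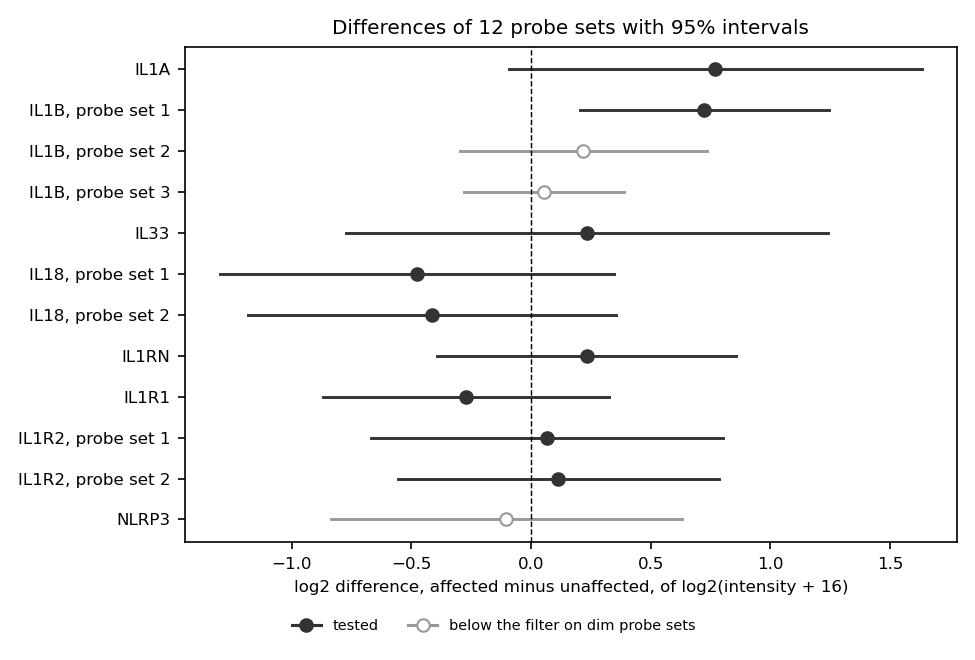
Log2 difference (affected minus unaffected, of log2(intensity + 16)) of the 12 probe sets, with 95% intervals from limma that are not corrected for the number of probe sets; filled points passed the filter on dim probe sets, open points did not and are from a fit without it. IL1B probe set 1 is the one whose interval, 0.21 to 1.24, leaves out 0.

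The foxes differed along more than disease. Over the 8 genes fox 757 was the highest fox in 4, and foxes 19 and 97 were each the lowest in 3. Unaffected fox 86, the highest for IL18 and IL1R1, had a summed signal of 1829 over 10 genes of the cornified layer, against 10892 to 29188 in the affected foxes and 23165 and 23721 in the other unaffected foxes. Fox 86 also had the highest sums for fibroblast, endothelium, T cell and macrophage markers. Affected fox 19, the lowest for IL33, IL18 and IL1R1, had the highest cornified sum and the lowest sums for macrophage, endothelium and T cell markers. The part of tissue makeup in these levels was not tested.

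Cell types that make or answer IL-1 were read through marker lists. Of the 6 keratinocyte genes with a probe set 5 were above background in every fox, with KRT13 at 9153 ± 1508 in affected and 10489 ± 3478 in unaffected foxes (SD, n = 5 and n = 3). KRT13 is a keratin of stratified mucosa. In the macrophage and monocyte list 12 of 13 tested genes had higher means, here and below on the log2 scale, in affected foxes. Their median log2 difference was 0.21, against a median of -0.027 and a share of 45.3% higher over the 10848 genes tested. In 1 of the 13, CD68, every affected fox was above every unaffected one, against 2.43% of all tested probe sets that separate in either direction. CD68 differed by 1.07 ± 0.35 (SE; limma, unadjusted p = 0.0119, adjusted p = 0.9999), by 0.55 without unaffected fox 97, and by 0.31 in its second probe set. The summed macrophage signal ran from 2497 to 7946 for the affected foxes and from 2800 to 9061 for the unaffected ones, so it overlapped between the groups, and without unaffected fox 97 the median was 0.012. In the neutrophil list 6 of 7 tested genes had higher means (median 0.096), and the affected foxes had sums of 25517 to 30912, against 25300 to 29040 for the unaffected foxes. Those sums were mostly S100A8 and S100A9, which gum epithelium also makes. The neutrophil granule gene ELANE was at background in all 8 foxes and MPO in all but 1 unaffected fox. These are RNA signals, and the number of neutrophils was not measured. Of the 7 tested genes 3 were higher at an unadjusted p under 0.05, all of them granule genes, against 2.69% of all tested probe sets in either direction. MMP9, a gelatinase that macrophages and epithelium can also make, read 71.0, 182, 55.3, 60.2 and 78.4 in affected foxes 19, 55, 107, 381 and 757, against 30.7, 15.2 and 33.7 in unaffected foxes 86, 97 and 402. Every affected fox was above every unaffected one, with a log2 difference of 1.23 ± 0.33 (SE; limma, unadjusted p = 0.00411, adjusted p = 0.9999), and its other probe sets differed by 0.28 and 0.35. LTF, the iron-binding lactoferrin, differed by 1.28 ± 0.51 and PGLYRP1, which binds bacterial peptidoglycan, by 1.45 ± 0.58 (SE; limma, adjusted p = 0.9999 for each). The second LTF probe set differed by 0.29. LTF and PGLYRP1 overlapped between the groups, since affected fox 19 read 15.9 for LTF and 14.9 for PGLYRP1, against 39.6 and 43.0 in unaffected fox 86. In the same list CD177 differed by -0.28, and MMP8 failed the filter. The part of these cells in the IL1B level was not tested. In the cornified layer list 8 of 10 tested genes had higher means in affected foxes (median 0.76, and -0.25 without unaffected fox 86). Higher means were found for 1 of 6 of other keratinocyte genes (-0.22), 6 of 9 of fibroblasts (0.064) and 1 of 7 of endothelium (-0.21). They were found for 2 of 7 of T cells (-0.090) and 2 of 5 of mast cells (-0.12). The fibroblast, T cell and mast cell medians also changed sign when a single fox was left out. In limma 0 genes of any marker or pathway list passed the adjusted threshold.

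Other ligands of the family were led by the IL-36 group, which epithelium makes. IL36B read 3199, 575, 1311, 1748 and 574 in affected foxes 19, 55, 107, 381 and 757, against 180, 2396 and 3413 in unaffected foxes 86, 97 and 402. IL36RN, its receptor antagonist, read 71.8 to 1245 in the affected group and 9.06 to 727 in the unaffected group, and IL1F10, another ligand of the family, read 29.5 to 361 in the affected group and 11.4 to 278 in the unaffected group. All 3 genes were lowest in fox 86, as the cornified sum was. Their log2 differences were 0.045 for IL36B, 0.51 for IL36RN and 0.31 for IL1F10, and without unaffected fox 86 they were -1.25, -0.98 and -0.58. Without unaffected fox 402 they were 0.82, 1.46 and 1.13. None passed the test (limma, adjusted p = 0.9999).

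Among the other receptors and regulators 2 of 4 tested genes had higher means (median -0.12, and 0.098 without unaffected fox 402). IL1RAP, the accessory chain shared by the receptors of IL1, IL33 and IL36, read 79.1 ± 32.3 in affected and 109 ± 15.4 in unaffected foxes (SD, n = 5 and n = 3), a difference of -0.46, and its second probe set differed by -0.31. IL1RL2, the receptor of the IL-36 group, differed by -0.35, or by -0.89 without unaffected fox 86 and 0.016 without unaffected fox 402. IL18RAP, the accessory chain for IL18, differed by 0.36, and IL18BP, its soluble inhibitor, by 0.11. IL1RL1, the IL33 receptor, failed the filter, and IL18R1 was at background in every fox.

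Of the receptor signalling genes 12 of 15 tested had lower means in affected foxes, with a median of -0.088 that ran from -0.16 to -0.033 as each fox was left out. MYD88, the adaptor at the receptor, read 546, 538, 625, 615 and 907 in affected foxes 19, 55, 107, 381 and 757, against 802, 806 and 818 in unaffected foxes 86, 97 and 402. In 4 of the 5 affected foxes it was below all unaffected ones, and in fox 757 above them. The difference was -0.34 ± 0.20 (SE; limma, adjusted p = 0.9999), and its other probe sets ranged from -0.24 to 0.084. RELA, an NF-kappaB subunit, differed by -0.54 and RELB, another, by -0.32. NFKBIA, the inhibitor that NF-kappaB itself induces, differed by 0.28, TAB2, an adaptor of the TAK1 kinase, by 0.15 (its other probe sets by -0.39 to 0.092), and IRAK1, a kinase recruited by MYD88, by 0.18.

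In the inflammasome and pyroptosis list 7 of 10 tested genes had lower means (median -0.23, and -0.053 without unaffected fox 86). PYCARD, the adaptor between sensor and caspase, read 255 ± 116 in affected and 279 ± 175 in unaffected foxes (SD, n = 5 and n = 3). The inflammatory caspase probe set named CASP4, whose identity as CASP4 or CASP1 was not settled, read 265 ± 96.9 in affected and 289 ± 211 in unaffected foxes, with a log2 difference of 0.0060 that was 0.54 without unaffected fox 86 and -0.34 without unaffected fox 402. TXNIP, a redox protein that binds NLRP3, differed by -0.43 with a second probe set at -0.49. NEK7, an NLRP3 partner, differed by -0.50, though its other probe sets ran from -0.28 to 0.13, and PANX1, a membrane channel, by -0.31. GSDME, a pore-forming gasdermin, differed by 0.0086 and NINJ1, which ruptures the membrane of dying cells, by 0.15. None passed the test (limma, adjusted p = 0.9999).

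In the list of proteases linked to IL-1 processing, 4 of 5 tested genes had higher means (median 0.16, and -0.019 without unaffected fox 402). The median over all foxes is the value of CTSS, whose second probe set differed by -0.39. CMA1, the chymase of mast cells, read 31.4, 14.6, 37.7, 40.9 and 44.8 in affected foxes 19, 55, 107, 381 and 757, against 10.5, 14.2 and 4.24 in unaffected foxes 86, 97 and 402. Every affected fox was above every unaffected one, with affected fox 55 and unaffected fox 97 nearly level, and the signal was at background in 2 unaffected foxes and 1 affected fox. The log2 difference was 0.94 ± 0.25 (SE; limma, unadjusted p = 0.00385, adjusted p = 0.9999), and 0.48 for its second probe set. The calpain CAPN2 differed by 0.21 and CAPN1 by -0.048, and MME, a membrane metallopeptidase, by 0.11. The neutrophil proteases ELANE and CTSG failed the filter.

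Of 17 tested genes that IL-1 induces in many cell types, 12 had higher means in affected foxes (median 0.091, and -0.20 without unaffected fox 402). CXCL8, which attracts neutrophils, read 2589, 3496, 2777, 1664 and 3980 in affected foxes 19, 55, 107, 381 and 757, against 2742, 865 and 1496 in unaffected foxes 86, 97 and 402. Foxes 97 and 402 were again the lowest, and fox 86 was above affected foxes 19 and 381. Its 3 probe sets all had higher means in affected foxes, at 0.86 for the brightest and 1.04 and 1.11 for the others (limma, adjusted p = 0.9999 for the brightest), and the brightest was at 0.45 without unaffected fox 97. LCN2, an antibacterial protein that binds siderophores, differed by 1.44 and ICAM1, an adhesion molecule for leukocytes, by 0.82, or by 0.45 without affected fox 55. MMP1, an interstitial collagenase, differed by -0.80 (-0.34 without affected fox 757), CCL20, which attracts dendritic cells and lymphocytes, by -0.58 (-0.053 without unaffected fox 86), and CSF3, the granulocyte growth factor, by -0.55.

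**Figure D5:**
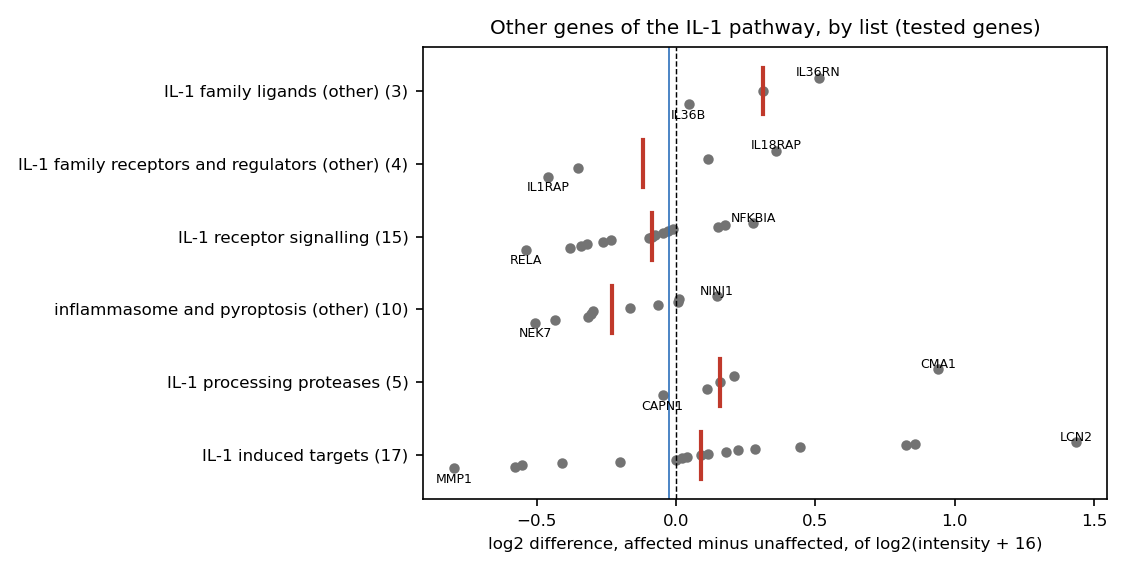
Log2 difference (affected minus unaffected) of each tested gene in 6 lists of the pathway, numbers of genes in brackets; grey points are genes, red bars list medians, the blue line the median of all 10848 genes tested at -0.027, and the lowest and highest gene of each list is named. List medians run from -0.23 for inflammasome and pyroptosis to 0.31 for the other ligands.

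Sex was compared with disease status in the model. Of the 9 tested probe sets 0 passed between females and males (limma, smallest adjusted p = 0.9999), 0 of them at an unadjusted p under 0.05 against 2.29% of all tested, and across the array 0.00388% passed the adjusted threshold, a single EIF2S3 probe set. IL33 had the largest sex estimate of these genes, 0.63 ± 0.43 higher in females (SE). The disease difference of IL33 was 1.19 in females, where 1 fox was unaffected, and -0.36 in males. The difference of the disease effect between the sexes was tested as an interaction, and 0 of the 9 passed (limma, smallest adjusted p = 0.99995), as did 0% of all probe sets. At an unadjusted p under 0.05 it was 1 of 9, the IL1R1 probe set, against 2.47% of all tested.

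Likeness over the 8 foxes was described by Pearson's r of log2 values, comparing 10519 genes with symbols. Among the 5 genes most like IL1B were SLC11A1, a metal transporter of phagocytes (r = 0.96), SLC2A3, a glucose transporter (0.96), NIPA1, a magnesium transporter (0.94), and NMT1, a myristoyl transferase (0.93). Those most like IL33 were PTPRJ, a receptor phosphatase (0.97), SOAT1, which esterifies cholesterol (0.96), APAF1, the apoptosome scaffold (0.95), LPCAT3, a phospholipid acyltransferase (0.95), and PPM1M, a phosphatase (0.94). The values share arrays and were picked as the highest of many, so they carry no test.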

How the data were processed

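Gingival RNA of 8 foxes was hybridised to dog arrays after 3' in vitro transcription labelling, per the labels' protocols. The authors deposited MAS5 signals, per the submitters' processing notes: linear intensities, 1 for each probe set of an array. Version, background method and scaling target are not given in the sources used. The trimmed mean (2% at each end) was 150.0 on every array. No array pair of 28 was identical. Of 42924 probe sets that are not controls, 29254 had 1 symbol, 439 several and 13231 none.

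Intensities were taken as log2(signal + 16), the lowest 40% by mean were left out, and 25754 probe sets were fitted with limma 3.58.1 in R 4.3.3 (lmFit, eBayes) with group as the only term. Where a gene has several probe sets, the one with the highest mean stands for it. Precision is limited by the number of arrays (median SE 0.23). On simulated arrays over 25754 probe sets, 36.4% of changes of 1 on the log2 scale and 86.6% of changes of 2 were recovered. Each simulation changed 200 probe sets and drew noise independently for every probe set. Variation that probe sets share on the real arrays was left out, so these shares may not hold for them.

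Members and lists were chosen with earlier results of these data known. From each list up to 3 genes per direction with the largest moderated t could be named; other genes were named after their values were seen. The labels give 1 fox per sample, and each is a separate animal. One of the genes most like IL1B is not reported here.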

Additional observations from a re-analysis of the deposited data

Results flagged for a closer look

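In the affected foxes the second IL18 probe set had 1 fox far from the others. Fox 19 read 101, while the other affected foxes read 212 to 260.3. On the log2 scale used for the differences, not on these linear intensities, the gap was 0.774 of the group's range. In the first IL18 probe set fox 19 was also the lowest, at 291 against 535 to 788 in the other affected foxes. Of the 12 groups examined this way, chance would set apart about 5%.

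IL1R1 moved in opposite directions in the sexes. Affected females read 23.0 and 24.8 against 11.3 in the unaffected female, and affected males read 6.03 to 15.6 against 22.9 and 36.5 in unaffected males. The log2 disease difference was larger in females by 1.28 ± 0.44 (SE), which did not pass as an interaction (limma, unadjusted p = 0.0190, adjusted p = 0.99995). The female value rests on 1 unaffected fox, and IL1R1 was at background in affected foxes 19 and 55. IL1R1 averaged 25.0 in the foxes of high 5' actin and 13.3 in those of low 5' actin. Both unaffected males were in the high set, while affected males 19 and 55 and the unaffected female were in the low set. Affected male 107 was also in the high set and read 15.6, against 36.5 and 22.9 in unaffected males 86 and 97. In the low set affected female 381 read 23.0, against 11.3 in unaffected female 402. Affected female 757, at 24.8, was in the high set. The part of RNA quality in the sex pattern of IL1R1 was not tested.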

How the results depend on the processing

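With 5 and 3 foxes, single animals set most of these values, and the signals of IL1B, IL1R1 and NLRP3 lie near background, where the offset shrinks a difference. No paired analysis was possible because the groups share no fox numbers. Over 21 alternatives 0 probe sets were called for affected against unaffected in limma, with 297 to 1490 at an unadjusted p under 0.05 (693 with the settings of the report), and over 16 alternatives 0 were called for the interaction, with 265 to 1464 at an unadjusted p under 0.05. For females against males the count was 0 with 1 probe set per gene, and 1 to 2 as each fox was left out (2 without affected fox 55). Of 165 alternative values for the 8 genes, 149 kept their direction and 0 passed the threshold (smallest adjusted p = 0.946); IL1A, IL1B and IL18 kept theirs throughout. IL33 was -0.36 with males only and -0.035 to 0.56 as each fox was left out. IL1RN ran from -0.013 to 0.53, IL1R1 from -0.51 to -0.042, IL1R2 from -0.14 to 0.26 and NLRP3 from -0.37 to 0.12 as each fox was left out. With array weights IL1R2 was -0.14 and NLRP3 0.030, and with the actin ratio as a covariate -0.31 and 0.12. Within foxes of high 5' actin IL1R2 was -0.32 and NLRP3 0.46, and within those of low 5' actin IL1R1 was 0.092; these sets were chosen after seeing the data. The causes were not tested. NLRP3 was fitted without the filter. At the 60% filter IL1B, IL1R1 and NLRP3 gave no value.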
